A study of Mus musculus with 16 samples.

Results

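The 32 genes described here build cholesterol and control sterols in the cell. They were listed by name, with no measured value in the rule, but earlier results of these data were known when the list was chosen. They make up 32 of the 22196 genes to which the deposited transcript counts could be summed. All 32 passed the filter on low counts, as did 12506 genes in all, and the 32 were tested together with those genes. The list holds 19 enzymes, of which 8 lead from acetyl-CoA to the isoprenoids, 3 from squalene to lanosterol and 8 from lanosterol to cholesterol. The other 13 genes hold 4 of the SREBP control system, 1 sterol carrier, 5 of the LXR group and 3 for esterification, HDL uptake and lipoprotein.

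The libraries, 16 in all, were made from RNA of whole inguinal mammary glands taken from mice at mid-lactation. Diet, with the labels NCD and HFD (the latter a high fat diet during lactation, per the study's title), was crossed with treatment, labelled control or metformin, a drug used to lower blood glucose. Each of the 4 groups, NCD control, NCD metformin, HFD control and HFD metformin, held 4 libraries. All 16 carry the age label postnatal day 16, which does not say whether it refers to the dam or to the days since birth of the litter. No source used here gives the expansion of NCD, the strain, the genotype, or the drug's dose and route. Whether the 4 libraries of a group are 4 animals is not stated in the labels, and the p-values therefore reflect the spread among these libraries only, which may be technical. Replicates carry numbers 1 to 4 in accession order, and values below are listed in that order, which has no meaning of its own.

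Cells make cholesterol from acetyl-CoA through mevalonate, isoprenoid diphosphates, squalene and lanosterol. When sterols are scarce in the endoplasmic reticulum, the INSIG anchors let go of the carrier SCAP, which takes the precursor of the transcription factor SREBP2 (gene Srebf2) to be activated, and SREBP2 switches on genes of nearly every step of the route. When sterols are plentiful, the LXR receptors switch on export genes such as Abca1 and Abcg1. In lactation the mammary epithelium secretes milk fat globules whose membranes carry cholesterol, which the gland both takes up from lipoproteins and makes itself.

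Totals over genes ran from 8649316 counts (HFD control 4) to 39156617, with a median of 28944266, and member counts in a library ran from 12 (Abca1) to 8380 (Apoe). Milk protein genes took 58.0 to 66.9% of the counts, and summed luminal epithelial markers reached 355000 to 567000 CPM (counts scaled to library size, after TMM scaling), so the defining markers of the labelled tissue were abundant. Summed skeletal muscle markers reached 3670 CPM in NCD control 3, against 0.868 to 139 CPM in the other 15 libraries. In bulk tissue, fewer cells of a type and less RNA per cell cannot be told apart. The median log2 fold change over all 12506 genes lay within 0.011 of 0 in all 7 comparisons.

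Per unit of coding length, Apoe, the lipoprotein component, was the most abundant member in NCD control, at 112 ± 24.6 TPM (transcripts scaled to coding length and library total, mean ± SD, n = 4, as all such values below). The LXR gene Nr1h2 followed at 48.0 ± 11.1 TPM and the farnesyl diphosphate synthase gene Fdps at 39.1 ± 9.72 TPM, and these neighbours overlapped within their SDs. Insig1 lay at 24.9 ± 10.3 TPM, also overlapping Fdps within the SDs, and Insig2 at 18.3 ± 3.28 TPM. Scarb1, the HDL receptor, and Pmvk shared the next place at 13.1 ± 1.49 and 13.1 ± 5.18 TPM. The enzymes spanned Fdps at the top to Dhcr7, the last reductase of the route, at 1.27 ± 0.569 TPM. The export genes were the lowest members, with Abcg1 at 0.356 ± 0.277 TPM and Abca1 at 0.102 ± 0.0229 TPM.

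The synthesis enzymes were highest in 1 of the 4 groups. Of the 19 enzymes, 16 had their highest mean CPM in NCD metformin. Summed over the 19 enzymes, the libraries held 254, 276, 319 and 387 CPM in the NCD control libraries and 452, 403, 455 and 388 CPM in those of NCD metformin. They held 317, 284, 270 and 273 CPM in HFD control and 279, 261, 295 and 285 CPM in HFD metformin. In this sum every NCD metformin library lay above every library of the other 3 groups. The margin of NCD metformin 4 over NCD control 4 was the narrowest, at 388 against 387 CPM. In the mean log2 CPM over the 19 enzymes the NCD groups overlapped. NCD control 4, at 3.91, lay above NCD metformin 2 (3.89) and NCD metformin 4 (3.87). The share of counts in mitochondrial genes set the NCD metformin libraries apart, at 3.24 to 3.67% against 1.97 to 3.01% in the other 12. Its part in the enzyme pattern was not tested. With milk protein and mitochondrial genes left out before scaling, the called members were 6 for metformin on NCD and 9 for diet with metformin, as with all genes. The group means of the summed enzymes were 309 ± 58.7, 424 ± 33.8, 286 ± 21.8 and 280 ± 14.1 CPM, in the order NCD control, NCD metformin, HFD control and HFD metformin.

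**Figure D1:**
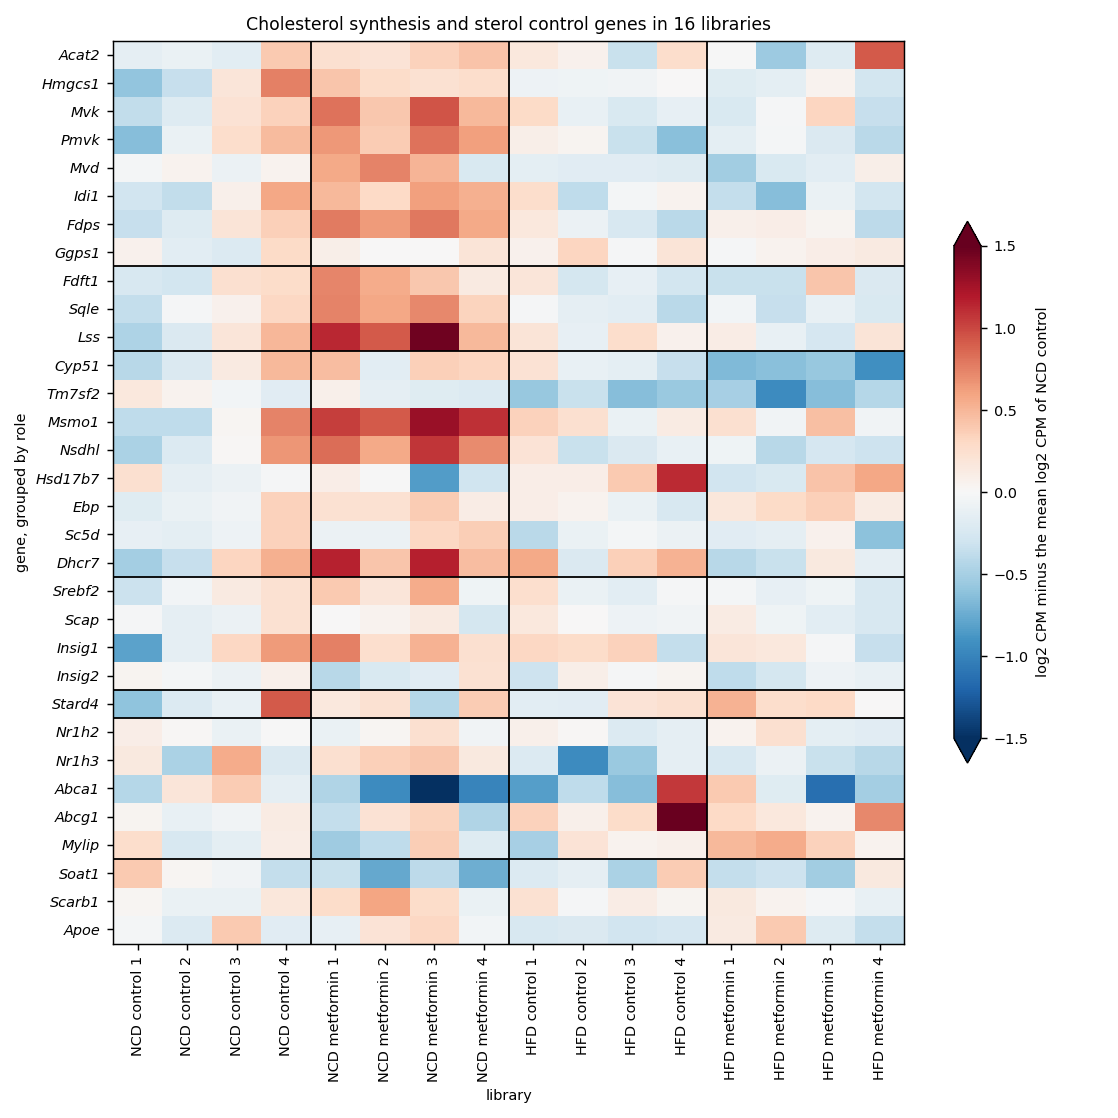
Each row is 1 of the 32 genes, grouped by role, and each column 1 of the 16 libraries; colour gives the log2 CPM minus the mean log2 CPM of NCD control. The enzyme rows are mostly red in the 4 NCD metformin columns and in NCD control 4, and pale or blue in the HFD columns.

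The first comparison asked what metformin did in glands of dams on NCD. There, 6 of the 32 genes were called higher and 0 lower, where called means an edgeR adjusted p under 0.05. All 6 were enzymes: Mvk, Fdps, Sqle, Lss, Msmo1 and Nsdhl. They are 18.8% of the members, against 4.01% of all 12506 genes called higher and 6.03% called lower (10% in either direction). Of the 19 enzymes 17 had a positive log2 fold change, with a median of 0.44. The other 13 genes had 6 positive and 7 negative values and 0 calls by edgeR, with 3 at an unadjusted p under 0.05, where 27.9% of all genes were, and 0 calls by DESeq2.

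Mvk, which adds the first phosphate to mevalonate (chromosome 5, 114444269 to 114460591, GRCm38, as are all coordinates here), measured 4.04, 4.59, 6.09 and 6.65 CPM in the NCD control libraries and 9.19, 6.95, 10.1 and 7.32 CPM in those of NCD metformin. On HFD it measured 6.38, 4.85, 4.46 and 4.80 CPM in control and 4.46, 5.18, 6.53 and 4.11 CPM in metformin. The NCD metformin libraries lay above all 12 others, and the other 3 groups overlapped. On NCD, Mvk rose 1.57-fold with metformin, a log2 change of 0.65 ± 0.19 (SE), with an edgeR adjusted p of 0.0396.

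Fdps makes farnesyl diphosphate, the branch point to sterols, dolichol, ubiquinone and prenyl groups, and lies on chromosome 3 from 89093588 to 89101959. It measured 51.5, 57.4, 75.0 and 84.0 CPM in the NCD control libraries and 113, 102, 114 and 97.4 CPM in those of NCD metformin. The HFD libraries held 73.3, 61.7, 55.6 and 49.6 CPM in control and 69.5, 70.5, 67.6 and 50.1 CPM in metformin. Again the 4 NCD metformin libraries lay above the rest, with no overlap. Fdps rose 1.59-fold on NCD (log2 0.67 ± 0.16, edgeR adjusted p = 0.021).

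Sqle, squalene epoxidase, oxidises squalene in the first step that needs oxygen, and lies on chromosome 15 from 59315077 to 59331192. It measured 34.3, 43.5, 46.0 and 54.6 CPM in the NCD control libraries and 73.7, 65.6, 72.7 and 55.5 CPM in those of NCD metformin. In the HFD groups it measured 43.4, 40.2, 39.5 and 33.2 CPM in control and 42.7, 34.6, 40.8 and 37.7 CPM in metformin. NCD metformin 4, the lowest of its group, stood just above NCD control 4, the highest of the controls. Sqle rose 1.5-fold on NCD (log2 0.58 ± 0.13, edgeR adjusted p = 0.0192).

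Lss, lanosterol synthase, folds squalene epoxide into lanosterol and lies on chromosome 10 from 76531588 to 76557138. It measured 4.96, 5.92, 7.78 and 9.67 CPM in the NCD control libraries and 15.0, 13.0, 18.8 and 9.62 CPM in those of NCD metformin. Glands on HFD gave 7.86, 6.29, 8.22 and 7.14 CPM in control and 7.38, 6.34, 5.77 and 7.81 CPM in metformin. NCD metformin 4 fell just under NCD control 4, so the NCD groups overlapped by 1 library, while its other 3 libraries were the highest of all 16. Lss rose 1.98-fold on NCD (log2 0.99 ± 0.21, edgeR adjusted p = 0.014).

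Msmo1 and Nsdhl act in turn to remove methyl groups from the sterol ring. Msmo1, the methylsterol monooxygenase (chromosome 8, 64718139 to 64733792), measured 3.38, 3.38, 4.51 and 7.37 CPM in the NCD control libraries and 9.07, 8.36, 10.8 and 9.41 CPM in those of NCD metformin. Under HFD the values were 5.63, 5.20, 4.11 and 4.80 CPM in control and 5.23, 4.25, 6.04 and 4.25 CPM in metformin. All 4 NCD metformin libraries lay above all others, and NCD control 4 stood well above its own group. Msmo1 rose 2.02-fold on NCD (log2 1.01 ± 0.21, edgeR adjusted p = 0.014), the largest log2 change of the 32 genes in that direction.

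Nsdhl, the sterol dehydrogenase (chromosome X, 72918557 to 72958514), measured 5.28, 6.37, 7.46 and 11.6 CPM in the NCD control libraries and 13.1, 10.9, 15.4 and 12 CPM in those of NCD metformin. On HFD it measured 8.45, 5.81, 6.33 and 6.81 CPM in control and 7, 5.50, 6.17 and 5.92 CPM in metformin. NCD control 4 lay above NCD metformin 2, so the NCD groups overlapped, while the HFD libraries all lay under the NCD metformin ones. Nsdhl rose 1.67-fold on NCD (log2 0.74 ± 0.20, edgeR adjusted p = 0.0296).

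Among the enzymes that did not pass, Dhcr7 had a log2 fold change of 0.77 ± 0.25 (edgeR adjusted p = 0.0595), Pmvk 0.56 ± 0.20 (0.0759) and Mvd 0.43 ± 0.16 (0.0889). Hmgcs1, which makes HMG-CoA at the start of the route, had 0.20 ± 0.20 and an adjusted p of 0.543 by edgeR. Its NCD control libraries spread from 7.88 to 20 CPM, while the NCD metformin libraries lay within that range, at 13.9 to 15.9 CPM. Only Tm7sf2 and Hsd17b7 of the enzymes had negative values, at -0.11 ± 0.12 and -0.23 ± 0.25. Acat2, at 0.29 ± 0.24, shares near-identical sequence with its neighbour Acat3, so its counts are uncertain.

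**Figure D2:**
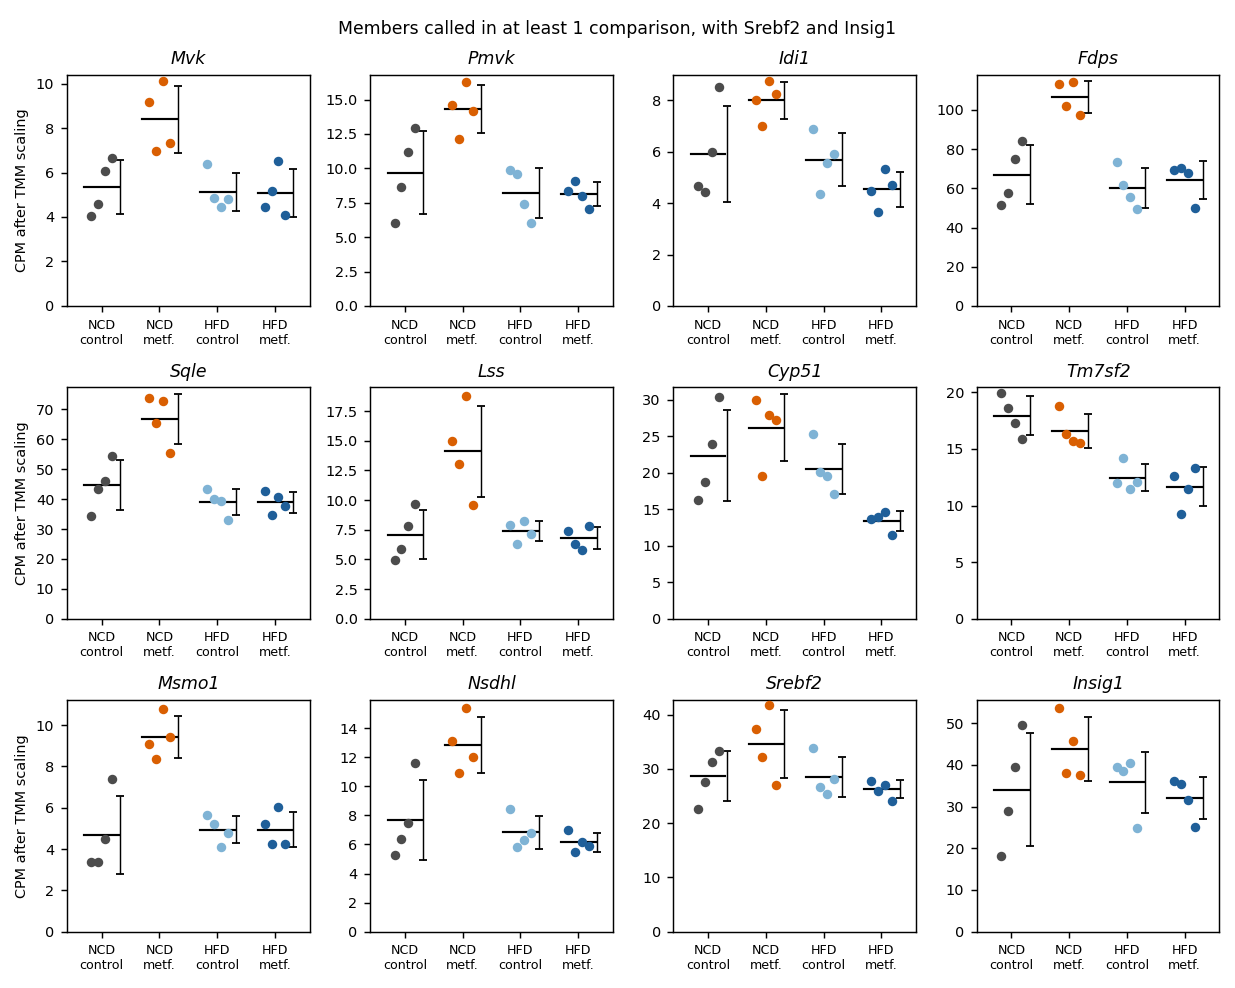
Each panel shows 1 gene, with 1 point per library, the group mean as a line and the SD as a bar; the vertical axis is CPM after TMM scaling and starts at 0. Fdps lies between 97.4 and 114 CPM in NCD metformin and between 49.6 and 84.0 CPM in the other 3 groups.

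The spread within NCD control was wide and shared by the enzymes. NCD control 4 was the highest of the 4 controls for 17 of the 19 enzymes and NCD control 1 the lowest for 11. The mean log2 CPM over the 19 enzymes had an SD of 0.29 among the NCD control libraries, against 0.12, 0.09 and 0.10 in NCD metformin, HFD control and HFD metformin. Without NCD control 4 the called members on NCD were 10, and they included all 6. Without NCD control 1 or NCD metformin 2 they were 2 (Lss and Msmo1), and without NCD control 2 or NCD metformin 3 they were 3 (those 2 and Sqle). Without NCD control 3, the library with muscle markers, 5 were called. The counts over all genes also fell, from 501 higher and 754 lower with all libraries. They were 116 and 268 without NCD control 1, and 79 and 101 without NCD metformin 2. They were 181 and 383 without NCD control 2, and 221 and 290 without NCD metformin 3. Without NCD control 4 they were 349 and 576, and without NCD control 3 they were 370 and 418.

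The library titles carry running numbers, which no label calls a batch, and which split the libraries at 12. Below 12, with 3 NCD control and 2 NCD metformin libraries, 18 of the 19 enzymes had a higher mean in NCD metformin, with a median log2 ratio of 0.63. Above 12, with only NCD control 4 against 2 NCD metformin libraries, 9 were higher and 10 lower, and the median was 0.00. With the split as a term in the edgeR fit, 5 of the 6 were called again, and Mvk was not. Over all genes that fit called 421 higher and 616 lower.

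Some cell type markers differed in the same libraries. Of 12 muscle markers, 11 were called lower with metformin on NCD, where their summed CPM had medians of 15.0 in control and 1.2 in metformin. Of 10 endothelial markers 1 was called higher, with summed medians of 95.9 and 117 CPM. The 12 adipocyte markers had 0 calls by edgeR or DESeq2 on NCD, and 0 had an unadjusted p under 0.05. Their median log2 fold change was 0.31 with metformin on NCD and 0.36 with metformin on HFD. Cfd, an adipocyte-secreted factor, had means of 200, 462, 99.8 and 194 CPM in NCD control, NCD metformin, HFD control and HFD metformin, and Adipoq, the adiponectin gene, 25.1, 37.7, 19.2 and 25.7 CPM. Pnpla2, a triglyceride lipase, had 422, 344, 459 and 557 CPM in that order. Cidea made up 75.3% of the list's sum, Pnpla2 12.8% and Cfd 6.85%, and every other gene less. The sum had medians of 3430, 3130, 3670 and 3700 CPM. Without Cidea, left out after the values were seen, the medians were 607, 1000, 614 and 1020 CPM. The libraries ran from 493 to 1490, 673 to 1330, 487 to 1070 and 534 to 1170 CPM, so the groups overlapped. The part of these cell types in the result was not tested, apart from the count without NCD control 3.

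RefSeq windows of 300 bases around the start of transcription, 250 before and 50 after, were given for 26 of the 32 genes on GRCm38.p6. Fdps and Sqle, both called with metformin on NCD, were among the 6 genes without a window. Motifs were searched on both strands. The CCAAT box, bound by NF-Y, a partner of SREBP at sterol genes, was in 20 of 26 members (76.9%), against 41.1% of 27025 genes. The core of a sterol regulatory element, TCACNCCAC, was in 1 of 26 (3.85%), against 1.44% of all genes. The E-box CACGTG was in 6 of 26 (23.1%) against 8.09%, and the direct repeat bound by LXR was in 0 of 26 against 0.0148%. These are matches of letters, not binding sites, and this count has no test.

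The 250 bases before the start are shown for Hmgcs1, the 1 of 26 searched members with the sterol element core. They are also shown for Mvk, Lss and Msmo1, 3 of the 6 genes that rose with metformin on NCD. Capitals mark CCAAT, read as ATTGG on the other strand, and in Hmgcs1 also the element TCACCCCAC. Hmgcs1 (chr13:119690101-119690350, plus strand) has 3 boxes and Mvk (chr5:114444019-114444268, plus strand) has 5. Lss (chr10:76531355-76531604, plus strand) has 1 and Msmo1 (chr8:64733579-64733828, minus strand) has 3.
Hmgcs1: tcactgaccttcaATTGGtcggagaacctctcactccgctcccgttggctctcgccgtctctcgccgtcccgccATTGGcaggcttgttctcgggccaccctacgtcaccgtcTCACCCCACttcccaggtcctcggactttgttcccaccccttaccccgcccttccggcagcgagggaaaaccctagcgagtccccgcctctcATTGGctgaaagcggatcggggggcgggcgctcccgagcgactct
Mvk: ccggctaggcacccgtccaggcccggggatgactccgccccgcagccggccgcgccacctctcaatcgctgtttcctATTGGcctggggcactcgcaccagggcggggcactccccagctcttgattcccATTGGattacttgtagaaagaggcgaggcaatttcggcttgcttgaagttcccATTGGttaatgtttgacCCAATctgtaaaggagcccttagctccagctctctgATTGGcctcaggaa
Lss: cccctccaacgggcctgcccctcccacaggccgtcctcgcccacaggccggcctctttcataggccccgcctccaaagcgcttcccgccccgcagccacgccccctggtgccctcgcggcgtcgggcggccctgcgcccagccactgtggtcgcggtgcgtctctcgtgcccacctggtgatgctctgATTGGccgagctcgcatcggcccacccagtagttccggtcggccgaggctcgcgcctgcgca
Msmo1: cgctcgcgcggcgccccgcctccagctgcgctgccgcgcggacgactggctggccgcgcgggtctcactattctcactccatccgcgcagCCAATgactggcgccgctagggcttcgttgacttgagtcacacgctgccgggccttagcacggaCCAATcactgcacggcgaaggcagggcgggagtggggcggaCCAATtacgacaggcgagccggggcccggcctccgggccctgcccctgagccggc

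On HFD, metformin left no member past the threshold. By edgeR 0 of 32 were called, 2 had an unadjusted p under 0.05, and DESeq2 called 0. Among all genes 0.168% were called in either direction and 12.8% had an unadjusted p under 0.05. The enzymes had 4 positive and 15 negative log2 fold changes with a median of -0.04. The 2 genes with the unadjusted p were Cyp51, at -0.62 ± 0.18 (edgeR adjusted p = 0.181), and Ebp, a sterol isomerase, at 0.27 ± 0.12 (adjusted p = 0.356). For Msmo1 the log2 change was -0.01, with a 95% interval from -0.47 to 0.46. For Lss it was -0.12, with an interval from -0.57 to 0.33. On NCD the intervals ran from 0.56 to 1.46 and from 0.55 to 1.43. The diets are compared by the interaction below, which called neither gene.

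Whether metformin acted differently on the diets is the interaction, and no member passed it. By edgeR and by DESeq2 0 of 32 were called, and 0.0% of all genes by edgeR. At an unadjusted p under 0.05 there were 9 of 32 members by edgeR, all enzymes, against 9.94% of all genes. The largest differences, HFD effect minus NCD effect, were -1.27 ± 0.36 in Dhcr7 (edgeR adjusted p = 0.337), -1.11 ± 0.30 in Lss (0.334), -1.02 ± 0.30 in Msmo1 (0.369), -0.91 ± 0.28 in Nsdhl (0.369) and -0.84 ± 0.26 in Cyp51 (0.369). Their intervals did not include 0, and the widest, for Dhcr7, ran from -2.03 to -0.50.

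Diet without metformin also moved no member past the threshold. By edgeR 0 of 32 were called and 2 had an unadjusted p under 0.05, where 0.064% of all genes were called and 7.04% had such a p. The enzymes had 6 positive and 13 negative values, with a median log2 fold change of -0.11. This direction turned with the title numbers: below 12, with 3 NCD and 1 HFD control library, 16 of 19 enzymes were higher on HFD (median log2 ratio 0.26), and above 12, with 1 and 3 libraries, 18 of 19 were lower (median -0.50). Tm7sf2, a sterol reductase that acts just after Cyp51 (chromosome 19, 6062821 to 6068373), came closest. It measured 19.9, 18.6, 17.3 and 15.9 CPM in the NCD control libraries and 12, 14.2, 11.5 and 12.1 CPM in those of HFD control. With metformin it measured 18.8, 16.3, 15.7 and 15.5 CPM on NCD and 12.6, 9.29, 11.5 and 13.3 CPM on HFD. Each NCD library lay above each HFD library, with and without metformin. Without metformin the log2 change was -0.53 ± 0.12 (edgeR adjusted p = 0.126), and this 1 gene was called by DESeq2.

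The last comparison of groups set the diets against each other with metformin given. There 9 of 32 members were called lower on HFD and 0 higher, and the 9 were enzymes: Pmvk, Idi1, Fdps, Sqle, Lss, Cyp51, Tm7sf2, Msmo1 and Nsdhl. They are 28.1% of the members, against 0.504% of all genes called lower and 1.86% called higher (2.36% in either direction). Of the 19 enzymes 18 had a negative log2 fold change, with a median of -0.72, and 12 had no overlap between the groups, where 4.01% of all genes were lower with no overlap. This comparison uses the same NCD metformin libraries as the metformin effect on NCD, so the 2 sets of values are not independent. Cell type markers moved here too: of 10 endothelial markers 1 was called lower (summed medians of 117 and 96.4 CPM), of 12 macrophage markers 1 higher (99 and 120 CPM) and of 10 luminal markers 1 higher (413000 and 493000 CPM). The adipocyte markers had 0 calls by edgeR or DESeq2, 1 at an unadjusted p under 0.05 and a median log2 fold change of -0.50. The part of these cells in the result was not tested.

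Pmvk, which adds the second phosphate to mevalonate (chromosome 3, 89454541 to 89469013), measured 14.6, 12.1, 16.3 and 14.2 CPM in NCD metformin and 8.38, 9.10, 8.01 and 7.01 CPM in HFD metformin. Its controls measured 6, 8.65, 11.2 and 12.9 CPM on NCD and 9.87, 9.56, 7.4 and 6.03 CPM on HFD. The metformin groups did not overlap, while the control groups did. With metformin, Pmvk was lower on HFD by a log2 change of -0.81 ± 0.20 (edgeR adjusted p = 0.0458).

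Idi1, which interconverts the isoprene units (chromosome 13, 8885501 to 8892451), measured 8.01, 7.02, 8.75 and 8.23 CPM in NCD metformin and 4.46, 3.67, 5.32 and 4.72 CPM in HFD metformin. Its controls measured 4.68, 4.42, 6 and 8.53 CPM on NCD and 6.87, 4.37, 5.57 and 5.92 CPM on HFD. The metformin groups did not overlap, and NCD control 4 reached the level of NCD metformin. The log2 change with metformin was -0.82 ± 0.20 (edgeR adjusted p = 0.0423).

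Cyp51, which removes the first methyl group of lanosterol (chromosome 5, 4081145 to 4104746), measured 30.0, 19.5, 27.9 and 27.2 CPM in NCD metformin and 13.7, 14, 14.6 and 11.5 CPM in HFD metformin. Its controls measured 16.3, 18.7, 23.9 and 30.4 CPM on NCD and 25.3, 20.1, 19.6 and 17.1 CPM on HFD. Here HFD metformin was the group that stood apart, under all 12 other libraries. Cyp51 fell by 0.96 ± 0.18 on the log2 scale (edgeR adjusted p = 0.0322).

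The other called enzymes fell by 1.07 ± 0.20 on the log2 scale in Nsdhl (edgeR adjusted p = 0.0322), by 1.04 ± 0.21 in Lss (0.0322), by 0.93 ± 0.21 in Msmo1 (0.0388), by 0.78 ± 0.14 in Sqle (0.0305), by 0.73 ± 0.16 in Fdps (0.0367) and by 0.51 ± 0.12 in Tm7sf2 (0.0388). Just past the threshold on the other side lay Dhcr7 at -1.0 ± 0.26 (edgeR adjusted p = 0.0505), Mvd at -0.62 ± 0.16 (0.0538) and Mvk at -0.72 ± 0.19 (0.0554). Hsd17b7 was the 1 enzyme with a positive value, 0.40 ± 0.25, and Ggps1 and Ebp had values of 0.00 ± 0.12 and -0.01 ± 0.12.

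**Figure D3:**
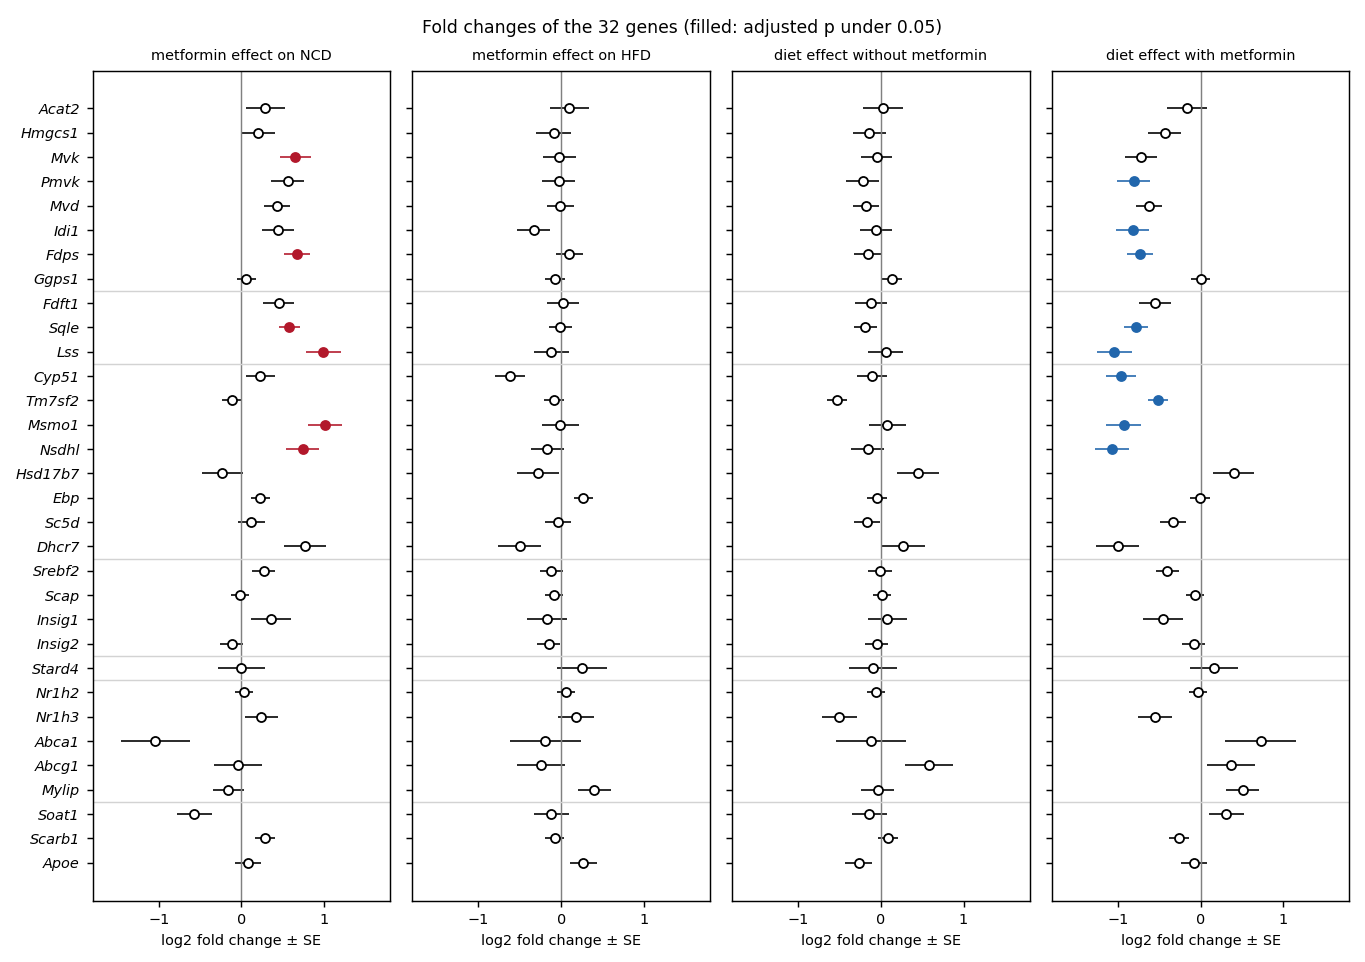
Points are log2 fold changes of the 32 genes in 4 comparisons and bars their standard errors; filled points, red for higher and blue for lower, have an adjusted p under 0.05. Filled points are found in the panels for metformin on NCD (6 red) and diet with metformin (9 blue), all among the enzymes in the upper rows.

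The number of calls depended on which libraries entered. Without NCD metformin 2, NCD metformin 3, HFD metformin 1 or HFD metformin 2 in turn, 0 members were called by edgeR, although 15 to 17 had an unadjusted p under 0.05. With all libraries 19 members had one, where 19.2% of all genes did. The counts over all genes fell alike, to 2 higher and 2 lower without NCD metformin 2, against 232 and 63 with all libraries. Without NCD metformin 1, HFD control 3 or HFD metformin 4, 4 members were called. All genes then had 153 higher and 24 lower, 86 and 21, and 84 and 13, in that order. The median over the enzymes held between -0.90 and -0.61 in every alternative run. Within the title numbers below 12, with 2 NCD and 1 HFD metformin library, 19 of 19 enzymes were lower on HFD (median log2 ratio -0.71), and above 12, with 2 and 3 libraries, 18 of 19 were (median -0.73). With library size alone as the scaling, all genes shifted by a median of -0.177 and split into 65 higher and 576 lower, and 15 members were called lower.

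**Figure D4:**
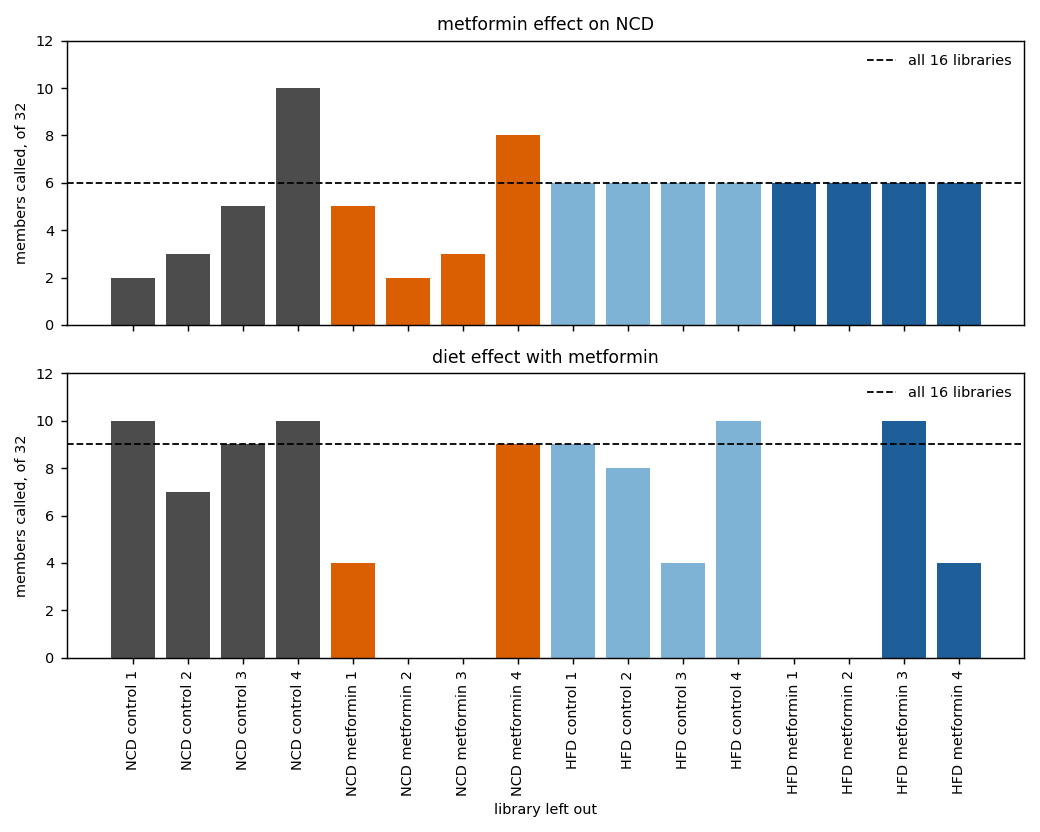
Bars give the number of the 32 genes called when the library named on the horizontal axis is left out, for metformin on NCD (upper panel) and diet with metformin (lower panel); dashed lines mark the count with all 16 libraries. The upper bars run from 2 to 10 and the lower ones from 0 to 10.

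Averaged over both diets, 2 members were called higher with metformin. They are 6.25% of the 32, near the 5.82% of all genes called higher (11.4% in either direction). They were Msmo1 (log2 0.50 ± 0.15, edgeR adjusted p = 0.043) and Fdps (0.38 ± 0.11, 0.0391). They lay above the mean of the controls of both diets in 6 and 7 of 8 metformin libraries. Within the diets, Msmo1 changed by 1.01 ± 0.21 on NCD and -0.01 ± 0.22 on HFD. Fdps changed by 0.67 ± 0.16 on NCD and 0.10 ± 0.16 on HFD. Averaged over both treatments, 2 members were lower on HFD, where 0.416% of all genes were called lower and 0.936% in either direction. These were Tm7sf2 (-0.52 ± 0.08, edgeR adjusted p = 0.0119) and Sqle (-0.48 ± 0.10, 0.03). Each lay below the mean of both NCD groups in 8 of 8 HFD libraries. Tm7sf2 alone of the 32 had no overlap between the 8 NCD and 8 HFD libraries. Within the treatments, Sqle changed by -0.19 ± 0.14 without metformin and -0.78 ± 0.14 with it. Tm7sf2 changed by -0.53 ± 0.12 and -0.51 ± 0.12. Without NCD control 4 the average metformin effect called 6 members, without NCD metformin 4 it called 4, without NCD control 3 it called 1, and without any of the others, save HFD control 1 and HFD metformin 4, it called 0. The average diet effect called 6 without NCD control 1 and 4 without NCD metformin 4 or HFD control 1. It called 1 without NCD metformin 1, NCD metformin 3, HFD control 3 or HFD metformin 2. Among all genes the average metformin effect called 728 higher and 696 lower with all libraries. It called 503 and 511 without NCD control 4, and 386 and 325 without NCD metformin 2. The average diet effect called 65 and 52 genes with all libraries, 48 and 52 without NCD control 1, and 10 and 18 without HFD control 3.

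None of the 13 control and transport genes was called by edgeR in any comparison, and at most 4 of them had an unadjusted p under 0.05 in the same one. DESeq2 called 1 of them, Nr1h3, in the average diet effect. Srebf2, which encodes SREBP2 (chromosome 15, 82147181 to 82205379), measured 22.7, 27.6, 31.3 and 33.3 CPM in the NCD control libraries and 37.3, 32.2, 41.7 and 27.1 CPM in those of NCD metformin. The HFD libraries held 33.9, 26.6, 25.4 and 28.1 CPM in control and 27.8, 26, 27.1 and 24.0 CPM in metformin. The 4 groups overlapped. Its log2 fold change was 0.27 ± 0.14 with metformin on NCD (edgeR adjusted p = 0.231) and -0.40 ± 0.14 with diet under metformin (0.132).

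Insig1, an SREBP target whose protein holds SCAP back (chromosome 5, 28071363 to 28078662), measured 18.2, 29.0, 39.4 and 49.6 CPM in the NCD control libraries and 53.7, 38.0, 45.7 and 37.5 CPM in those of NCD metformin. In the HFD groups it measured 39.5, 38.5, 40.4 and 24.9 CPM in control and 36.1, 35.5, 31.6 and 25.0 CPM in metformin. The metformin groups of the diets did not overlap, while NCD control spanned nearly the whole range. Its log2 fold change was 0.36 ± 0.24 with metformin on NCD (edgeR adjusted p = 0.348) and -0.45 ± 0.24 with diet under metformin (0.324). Scap and Insig2 had log2 fold changes between -0.15 and 0.01 in the 4 comparisons of groups.

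Of the LXR group, Nr1h2 stayed within -0.06 to 0.06 on the log2 scale. Nr1h3, the other LXR gene, had values of -0.50 ± 0.21 (edgeR adjusted p = 0.66) with diet alone and -0.55 ± 0.21 (0.151) with diet under metformin. Abca1, the exporter to lipid-poor apolipoprotein, measured 1.39, 2.11, 2.44 and 1.70 CPM in the NCD control libraries and 1.37, 0.969, 0.422 and 0.938 CPM in those of NCD metformin. The HFD groups gave 1.05, 1.44, 1.2 and 3.91 CPM in control and 2.46, 1.64, 0.85 and 1.31 CPM in metformin. The NCD groups did not overlap, while several HFD libraries lay within the range of NCD metformin. Its counts are among the lowest of the list, and the log2 change with metformin on NCD, -1.04 ± 0.42, had an edgeR adjusted p of 0.114. Abcg1 lay between 0.821 and 3.13 CPM in all 16 libraries. Mylip, a ubiquitin ligase that marks lipoprotein receptors for degradation, had 0.51 ± 0.20 with diet under metformin (edgeR adjusted p = 0.155).

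Soat1, which esterifies cholesterol for storage, had a log2 fold change of -0.57 ± 0.21 with metformin on NCD (edgeR adjusted p = 0.0884). Scarb1 had 0.28 ± 0.12 (0.152) and Apoe 0.08 ± 0.16 (0.80) in that comparison by edgeR. Stard4, which carries sterol inside the cell, lay between 0.808 and 2.33 CPM in all libraries and had a 95% interval from -0.61 to 0.60 with metformin on NCD.

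Another 51 genes of sterol, isoprenoid and oxysterol pathways were listed beside the members, of which 43 were tested. With metformin on NCD 1 was called higher and 1 lower by edgeR, where 4.01% and 6.03% of all genes were. Npc2, which moves sterol out of lysosomes, rose from 106 ± 12.4 to 138 ± 11.7 CPM (log2 0.39 ± 0.11, edgeR adjusted p = 0.0332). Lipa, the lysosomal lipase that frees cholesterol from its esters, fell from 193 ± 37.6 to 99.8 ± 13.1 CPM (log2 -0.95 ± 0.23, edgeR adjusted p = 0.021). On HFD, Lipa measured 174 ± 49.9 CPM in control and 180 ± 55.6 CPM in metformin. Macrophage markers, of which 1 of 12 was called lower, had summed medians of 137 and 99 CPM on NCD, and their part in the Lipa result was not tested.

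By edgeR 0 of the 43 were called in the metformin effect on HFD, in the diet effect without metformin and in that with it. At an unadjusted p under 0.05 there were 4, 4 and 7, where 12.8%, 7.04% and 19.2% of all genes were. DESeq2 called Npc2 and Cyp27a1 in the first and 0 in the second, and its calls in the third included Lipa. Averaged over the diets, metformin gave 4 higher and 3 lower, where 5.82% of all genes were called higher and 11.4% in either direction. The 4 of lowest p were Npc2 (0.38, edgeR adjusted p = 0.00709), Cyp27a1, a sterol hydroxylase (1.07, 0.00888), Rxra, the LXR partner (-0.32, 0.0188), and Apoc1, an apolipoprotein (0.99, 0.0374). Srebf1, whose products drive fatty acid synthesis, had means of 97.2 ± 30.2, 153 ± 60.9, 87.7 ± 22.9 and 110 ± 6.71 CPM in NCD control, NCD metformin, HFD control and HFD metformin. Its metformin effect on NCD, 0.65 ± 0.26, did not pass (edgeR adjusted p = 0.113).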

How the data were processed

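Salmon estimated counts and TPM per transcript as the authors deposited them, per the file headers. The submitters' processing notes name GRCm38.p6, Salmon 1.3.0 and DESeq2 1.28.1 without roles; no source used here gives options for strand and bias, so overlapping antisense genes cannot be told apart. Listed lengths match coding sequence, so untranslated regions are not measured. RNA was taken from whole glands and made into directional libraries, per the labels' protocols.

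The estimated counts of 57452 of 58204 deposited transcripts were summed to 22196 GENCODE M21 genes and rounded; the rest held 0.165 to 0.218% of a library's counts. The main test was edgeR's (4.0.16, under R 4.3.3) two-sided quasi-likelihood test, in 1 fit of 4 group means over 16 libraries, after filterByExpr and TMM scaling, with Benjamini-Hochberg adjustment over all 12506 genes and a threshold of 0.05. The fit has 12 residual degrees of freedom. Log2 fold changes are given ± SE, with intervals at the 95% level. TPM, as deposited by the authors, served for levels between genes. A floor of 3 counts is 0.0766 to 0.347 CPM, for counting error only. None of the 120 pairs of libraries matched within sampling noise. The procedure was tested on simulated data. DESeq2 1.42.0, other scalings and filters, and leaving out each library were the alternatives, and removing GC and length trends was added after the data were seen.

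The members and lists were chosen with earlier results of these data known. Values in every library are given for members called in any comparison and for Srebf2 and Insig1; those of Abca1 were added after its values were seen. Of the other pathway genes, up to 4 called per comparison, by lowest p, are named; Srebf1 was added after its values were seen.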

Additional observations from a re-analysis of the deposited data

Results flagged for a closer look

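In groups of 4 libraries, a library was singled out when its gap to the nearest other as a share of the group's range exceeded Dixon's critical value at the 95% level. Chance gives this in about 1 of 20 groups, and 7 of the 128 groups examined, 4 for each of 32 genes, met it. Of the 7, 3 came from HFD control 4, the shallowest library with 8649316 counts: Insig1 at 24.9 CPM against 38.5 to 40.4 CPM in the others of its group, Abca1 at 3.91 against 1.05 to 1.44 CPM, and Abcg1 at 3.13 against 1.18 to 1.42 CPM. NCD control 4 gave 2 of them, with Acat2 at 38.8 against 26.5 to 27.5 CPM and Sc5d at 16.4 against 11.7 to 12.3 CPM. In HFD metformin, Fdps lay at 50.1 CPM in replicate 4 against 67.6 to 70.5 CPM, and Fdft1, squalene synthase, at 19.2 CPM in replicate 3 against 11.5 to 12.4 CPM.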

How the results depend on the processing

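None of the 19 called fold changes reversed its sign under any alternative. With metformin on NCD, Msmo1 and Lss were called in all 26 alternatives, Sqle was lost in 2, Fdps in 4, Nsdhl in 6 and Mvk in 10; with diet under metformin, losses ran from 5 (Sqle, Lss, Nsdhl) to 13 (Pmvk). Leaving out 1 library gave 2 to 10 called members for metformin on NCD, 0 to 10 for diet with metformin, 0 to 6 for metformin averaged and 1 to 6 for diet averaged. With library size alone the counts were 15 for diet with metformin, 1 for diet without, 0 for metformin averaged and 16 for diet averaged. Over all genes that scaling called 65 higher and 576 lower for diet with metformin and 2 and 37 for diet without. For metformin averaged it called 357 and 897, and for diet averaged 49 and 1546. With counts rebuilt from TPM, 0 members were called for diet with metformin and for both averages. All genes had 1 higher and 2 lower for diet with metformin, 552 and 329 for metformin averaged, and 13 and 22 for diet averaged. DESeq2 called 1 for diet without metformin (Tm7sf2), 5 for metformin averaged and 9 for diet averaged. Among all genes it called 27 higher and 44 lower for diet without metformin. It called 994 and 954 for metformin averaged and 285 and 173 for diet averaged. Metformin averaged had 1 without milk protein and mitochondrial genes, 1 with no filter on low counts and 1 with the title number term, and diet averaged had 4 after GC and length trends were removed. Over all genes these runs called 590 higher and 794 lower, 552 and 512, 720 and 686, and 77 and 62, in that order. Metformin on HFD and the interaction stayed at 0 in every alternative run. A fit on only the groups compared was not run for the averages and the interaction, which use all groups. No paired analysis was possible because the labels give no replicate numbers or pairs, and the numbers used here follow accession order. Counts as low as 12 limit Abca1, Abcg1 and Stard4.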
